A study of Homo sapiens with 4 samples.

Results

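The interleukin-1 (IL-1) family genes described here are 10 in number, chosen by name as cytokines, antagonists and receptors of the family among 18323 genes with an array value. They are the agonist cytokine genes IL1A, IL1B, IL18, IL33 and IL36G, the antagonist genes IL1RN and IL36RN, the receptor genes IL1R1 and IL1RAP, and the decoy receptor gene IL1R2. Each had 1 probe set. RNA came from 2 nasopharyngeal carcinoma cell lines, HK1 and HK1EBV, on 1 array for each of 4 groups. HK1 cells were kept with DMSO (0.1%) or with caffeic acid phenethyl ester (CAPE, 110 µM) for 24 h, and HK1EBV cells likewise. CAPE is a propolis component known as an inhibitor of NF-κB. The name HK1EBV is read as HK1 cells carrying Epstein-Barr virus, on which the labels are silent, as they are on DMSO in the CAPE cultures.

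IL-1α and IL-1β, the products of IL1A and IL1B, bind the receptor of IL1R1, which then recruits the accessory chain of IL1RAP and signals through MYD88 and IRAK kinases to NF-κB. The product of IL1RN occupies that receptor without signalling, and the product of IL1R2 binds the cytokines as a decoy. IL-18, IL-33 and the IL-36 cytokines act through related receptors, and IL36RN encodes the antagonist for the IL-36 receptor. Squamous epithelial cells keep IL-1α as a store that is freed on injury, while IL-1β needs cleavage, by caspase-1 for example, before it is active.

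The upstream sequences of 3 genes are shown because their RNAs gave the largest differences within the family. IL1B was lower with CAPE, and IL1A and IL1RAP were lower in HK1EBV. Each is the 250 bases before a transcription start in RefSeq (GRCh38.p14). IL1A lies at chr2:112784494-112784743 on the minus strand, IL1B at chr2:112836780-112837029 on the minus strand and IL1RAP at chr3:190513835-190514084 on the plus strand. For IL1A the window of the more upstream of 2 listed starts is given. Capitals mark matches, on either strand, to the AP-1 motif TGANTCA, the antioxidant response element TGACNNNGC, the TATA motif TATAAA or the NF-κB consensus.
IL1A: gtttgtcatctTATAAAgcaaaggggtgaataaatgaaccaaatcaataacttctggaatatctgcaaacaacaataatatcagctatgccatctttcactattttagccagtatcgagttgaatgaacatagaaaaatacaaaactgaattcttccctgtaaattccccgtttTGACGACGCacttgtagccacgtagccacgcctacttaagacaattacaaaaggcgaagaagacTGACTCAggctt
IL1B: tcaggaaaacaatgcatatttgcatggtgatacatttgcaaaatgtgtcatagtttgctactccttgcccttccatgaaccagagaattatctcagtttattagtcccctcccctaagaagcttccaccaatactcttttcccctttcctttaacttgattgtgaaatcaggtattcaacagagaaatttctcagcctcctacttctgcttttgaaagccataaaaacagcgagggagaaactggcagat
IL1RAP: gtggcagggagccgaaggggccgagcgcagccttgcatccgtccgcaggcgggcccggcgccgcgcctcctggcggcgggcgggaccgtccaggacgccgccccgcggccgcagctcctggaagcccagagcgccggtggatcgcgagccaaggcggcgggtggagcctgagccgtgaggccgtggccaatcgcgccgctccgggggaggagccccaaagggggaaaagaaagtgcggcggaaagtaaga

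In the IL1A window AP-1 matched at positions -12 to -6 from the start, the antioxidant response element at -76 to -68 and TATAAA at -239 to -234, and no match overlapped another. Among all 35116 windows of this length, 6.57% held the AP-1 motif, 10.9% the antioxidant response element, 10.7% TATAAA and 5.21% the NF-κB consensus. In the IL1B and IL1RAP windows 0 of the 4 motifs matched, which says only that these letters are not there. G and C made up 37.6% of the IL1A window, 40% of the IL1B window and 74.8% of the IL1RAP window. Of the 10 genes 9 had a window, and IL18 had none.

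The values are log2 values from RMA, a method that subtracts background, equalises the distributions of the arrays and combines each set's probes. Array medians lay between 2.23 and 2.27. Of the epithelial and squamous markers 9 of 9 with a value stood above the array median on all 4 arrays. Leukocyte and myeloid markers did so for 1 of 12, TYROBP, and 9, PTPRC and ITGAM among them, were below the median on all 4. The leukocyte log2 values summed to between 16.8 and 17.0 on each array, and their part in the results below was not tested. The 15194 genes whose mean was at least 0.997, which is the 25th percentile over probe sets, were tested. Line and treatment entered a limma fit of the 4 arrays together. The lines were thus the only replicates of the CAPE change, and the treatments the only replicates of the line difference. For each gene the 1 residual degree of freedom is the difference in CAPE change between the lines, moderated by limma across genes. The p-values rest on this difference, which mixes array noise with any real difference between the lines, and not on replicate arrays. The labels do not say that the arrays came from separate cultures, so that noise may be technical. In such bulk RNA, fewer cells with a transcript and less of it per cell cannot be told apart.

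Of the 10 genes, 8 were tested. IL33, the gene of an alarmin held in the nucleus, stood at 0.47 on 3 arrays and at 0.63 on HK1EBV DMSO. IL1R1 stood at 0.63 and 0.55 in HK1 with DMSO and CAPE, and at 0.62 in HK1EBV with either. Both means lay below the filter, by 0.48 and 0.39, and neither gene was tested. IL36G and IL1R2 passed the filter but stood under the array median on all 4 arrays, and IL36RN did so on 1.

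**Figure D1:**
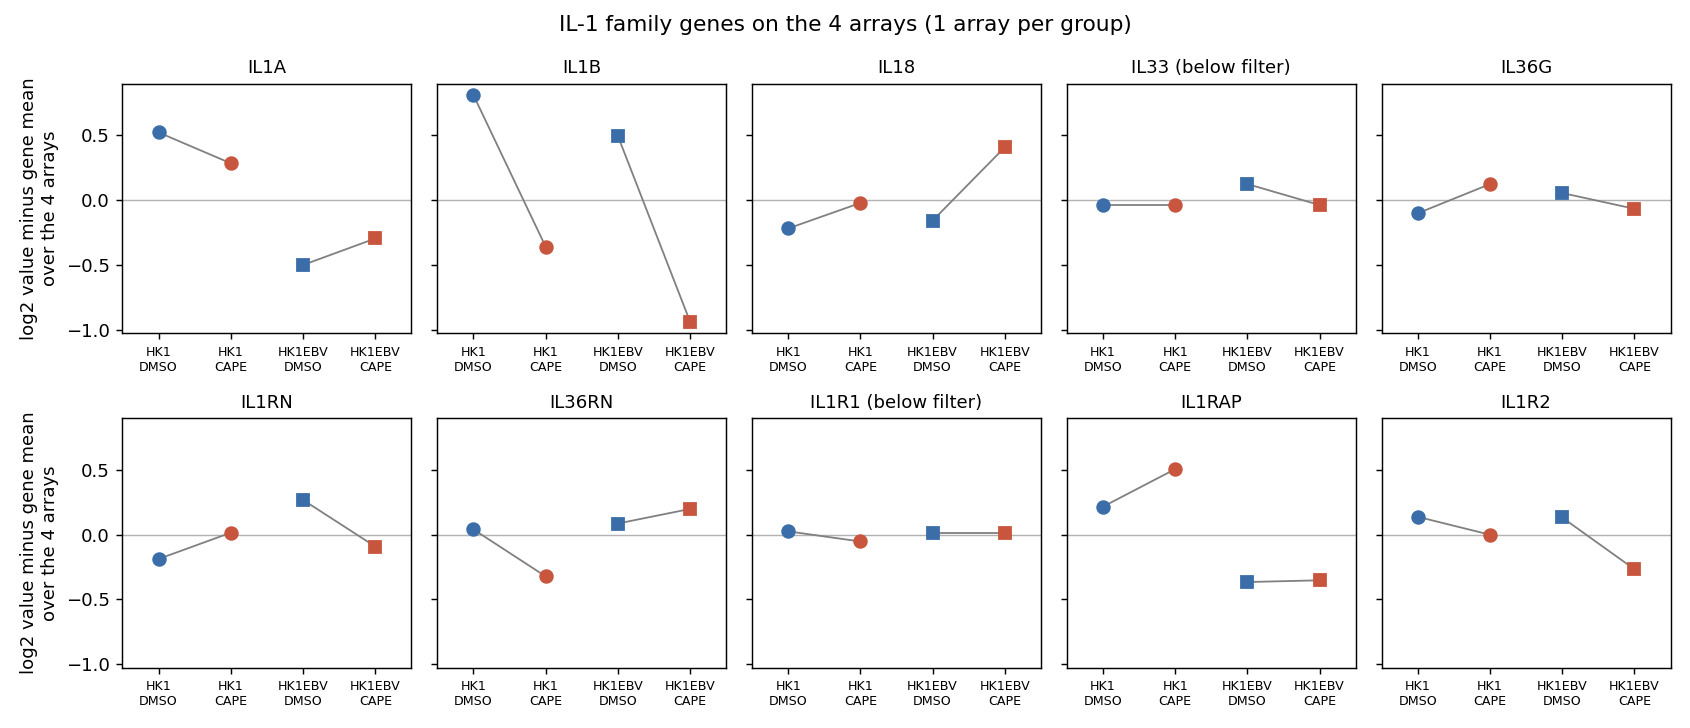
Log2 value of each gene minus its own mean over the 4 arrays (y axis), by group (x axis), with circles for HK1, squares for HK1EBV, blue for DMSO and red for CAPE, 1 array a point, so no error bar. IL1B was lower with CAPE in both lines, IL1A and IL1RAP were lower in HK1EBV under both treatments, and IL33 and IL1R1 spanned 0.16 and 0.08.

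The first question was how CAPE moved the family in each line. The cytokine gene IL1B stood at 9.23 with DMSO and 8.06 with CAPE in HK1, and at 8.92 and 7.48 in HK1EBV. From the highest, the order was HK1 DMSO, HK1EBV DMSO, HK1 CAPE, HK1EBV CAPE. The changes were 2.25-fold lower in HK1 and 2.70-fold lower in HK1EBV. IL1B was the 1 of 8 family genes changed at least 2-fold in HK1, where 1.36% of all genes tested were in either direction and 0.684% lower. It was also the 1 of 8 in HK1EBV, where 1.22% were in either direction and 0.533% lower. By the mean change it was the 21st lowest of 15194 genes, at -1.30 ± 0.12 (moderated SE of limma, n = 2 lines), with a 95% interval from -1.62 to -0.98.

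IL1B did not pass the test over all genes (limma with Benjamini-Hochberg adjustment, adjusted p = 0.0672). Over 9 alternative settings the adjusted p ran from 0.00064 to 0.437, and 5 of them passed. By limma 0 of the 8 family genes passed for CAPE, against 0.00658% of all genes tested, and 2, IL1B and IL18, had an unadjusted p under 0.05, as did 19.5% of all genes. Without 57 genes whose residual was exactly 0, 1 of 8 family genes passed and fell, beside 8.21% of all genes in either direction and 4.14% lower. That 1 was IL1B (limma adjusted p = 0.00064).

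IL1A, the neighbour of IL1B, took another course. It stood at 8.57 and 8.33 in HK1 with DMSO and CAPE, and at 7.55 and 7.75 in HK1EBV. The CAPE changes were -0.24 in HK1 and 0.20 in HK1EBV, of opposite sign. Their mean was -0.02 ± 0.15 (moderated SE, n = 2 lines), with a 95% interval from -0.40 to 0.37. Within an array, IL1A moved against IL1B by 0.93 with CAPE in HK1 and by 1.64 in HK1EBV, so the 2 RNAs changed unequally in both lines.

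IL18, which encodes a cytokine that induces interferon-γ, was higher with CAPE in both lines, from 5.32 to 5.52 in HK1 and from 5.38 to 5.95 in HK1EBV. Its highest value was on HK1EBV CAPE. The mean change was 0.38 ± 0.14 (moderated SE, n = 2 lines), with a 95% interval from 0.03 to 0.74 and a limma adjusted p = 0.230. IL36G, an epithelial member of the IL-36 group, stood between 1.53 and 1.75, with CAPE changes of 0.22 and -0.12.

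Of the antagonist genes, IL1RN stood at 4.83 and 5.03 in HK1 and at 5.28 and 4.92 in HK1EBV with DMSO and CAPE. It was thus higher with CAPE by 0.20 in HK1 and lower by -0.36 in HK1EBV. IL36RN ran the other way, at 2.35 and 1.99 in HK1 and 2.40 and 2.51 in HK1EBV. The 95% intervals of their mean changes were -0.51 to 0.35 and -0.52 to 0.27. IL1B moved against IL1RN by -1.37 with CAPE in HK1 and by -1.07 in HK1EBV, more than 2-fold in each line.

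Among the receptor genes the accessory chain IL1RAP stood at 4.99 and 5.28 in HK1 and at 4.41 and 4.43 in HK1EBV, with a mean CAPE change of 0.15 (95% interval -0.17 to 0.48). The decoy IL1R2 was lower with CAPE by -0.14 in HK1, from 1.69 to 1.55, and by -0.40 in HK1EBV, from 1.68 to 1.28. Its mean change of -0.27 had a 95% interval from -0.59 to 0.05, and its values lay under the array medians.

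**Figure D2:**
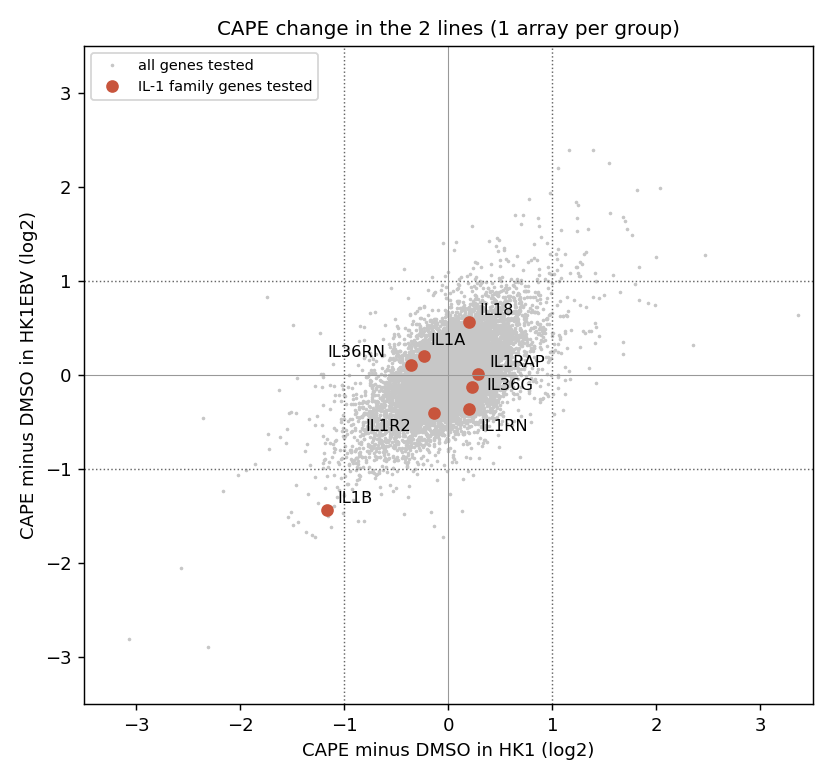
CAPE change in HK1 (x axis) and in HK1EBV (y axis), both as log2 differences of 2 arrays, for all 15194 genes tested (grey) and the 8 IL-1 family genes tested (red), with dotted lines at 2-fold. IL1B lies beyond both lines at -1.17 and -1.43, and the other 7 lie within 2-fold in each line.

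Over the 8 genes the median CAPE change was 0.03 in HK1 and -0.05 in HK1EBV, beside 0.02 and -0.00 for all genes tested. The CAPE change had the same sign in both lines for 4, with IL18 and IL1RAP higher and IL1B and IL1R2 lower. For the other 4 (50%), IL1A, IL36G, IL1RN and IL36RN, it was opposite, against 35.7% of all genes tested. How far the CAPE change itself differed between HK1EBV and HK1 could not be tested with single arrays. This difference reached 2-fold in 0 of 8 family genes and in 0.77% of all genes, and lay between -0.56 for IL1RN and 0.47 for IL36RN.

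The second question was how HK1EBV differed from HK1. They are a single pair of lines, so an effect of the virus cannot be told apart from other differences between them. IL1A was lower in HK1EBV by 2.03-fold with DMSO and by 1.49-fold with CAPE. Its mean difference was -0.80 ± 0.15 (moderated SE of limma, n = 2 treatments), with a 95% interval from -1.18 to -0.42 and an adjusted p = 0.0651. IL1RAP was lower by 1.5-fold with DMSO and 1.81-fold with CAPE. Its mean difference was -0.72 ± 0.13 (moderated SE, n = 2 treatments), with an interval from -1.04 to -0.39 and a limma adjusted p = 0.0605. IL1B differed by -0.32 with DMSO and by -0.58 with CAPE (interval of the mean -0.77 to -0.13, limma adjusted p = 0.129).

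By limma 0 of 8 family genes passed for the line difference, beside 2.9% of all genes tested, and 3, IL1A, IL1B and IL1RAP, had an unadjusted p under 0.05, as did 23.1% of all genes. Without the genes of zero residual IL1A and IL1RAP fell in HK1EBV, with limma adjusted p of 0.0056 and 0.00691, beside 5.34% of all genes lower, 6.26% higher and 11.6% in either direction. Over the 9 alternatives the adjusted p ran from 0.0056 to 0.211 for IL1A and from 0.00691 to 0.230 for IL1RAP, and 5 passed for each. In DMSO, IL1A was the 1 of 8 genes changed at least 2-fold, and it was lower, beside 1.87% of all genes in either direction, 0.974% lower and 0.895% higher. Under CAPE 0 of 8 reached 2-fold, beside 2.05% in either direction and 1.13% lower.

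IL1RN was higher in HK1EBV by 0.45 with DMSO and differed by -0.11 with CAPE. IL18 was higher by 0.06 and 0.43 and IL36RN by 0.05 and 0.52, in DMSO and under CAPE. IL1R2 differed by -0.01 and -0.27, and IL36G by 0.16 and -0.19. The 95% intervals of the mean line difference held 0 for these 5 genes, and the widest, that of IL1RN, ran from -0.26 to 0.61.

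**Figure D3:**
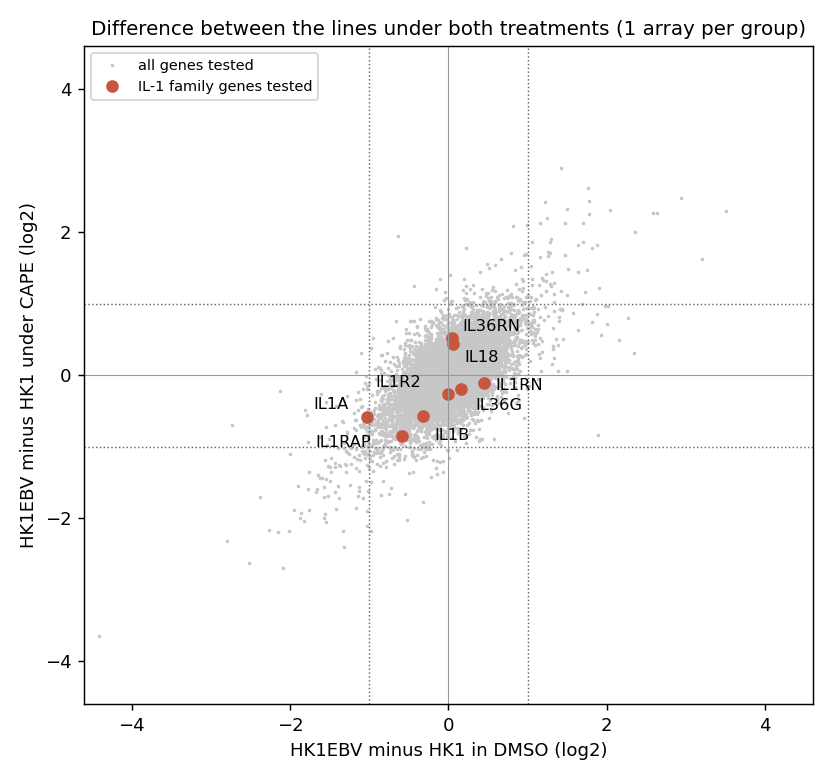
HK1EBV minus HK1 in DMSO (x axis) and under CAPE (y axis), both as log2 differences of 2 arrays, for all genes tested (grey) and the 8 IL-1 family genes (red), with dotted lines at 2-fold. IL1A at -1.02 and -0.58 and IL1RAP at -0.58 and -0.86 have the lowest mean differences in the family.

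IL1B varied mostly with CAPE, and IL1A and IL1RAP mostly with the line. Of the variation of IL1B over the 4 arrays, the mean CAPE change took 88.6%, the mean line difference 10.5% and the difference in CAPE change between the lines 0.907%. For IL1A these shares were 0.0414%, 92.9% and 7.09%, and for IL1RAP 4.11%, 92.5% and 3.41%. For IL36G and IL1RN the largest share was the difference in CAPE change between the lines, at 91.1% and 68.5%. The values of IL36G spanned only 0.22. Array noise is part of every share.

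Genes with the most similar pattern were sought by the root mean square difference of centred log2 values over the 4 arrays, for IL1A and IL1B, the 2 family genes whose values spanned 1 log2 unit or more. Nearest to IL1B were DKC1, a pseudouridine synthase of ribosome and telomerase RNA, at 0.0997, ENC1 at 0.110 and SLC25A15, a mitochondrial ornithine carrier, at 0.122. Nearest to IL1A were ASB1 at 0.0198, SLC25A37, a mitochondrial iron importer, at 0.0387 and SAMD12 at 0.0423. These are descriptions over 4 arrays among 15194 genes.

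On chromosome 2 lie 7 of the 10 genes, in a ligand cluster from IL1A to IL1RN and a receptor cluster from IL1R2 to IL18RAP. The genes beside IL1B had smaller CAPE changes in these arrays. IL37, next to it, stood below the filter, and CKAP2L, a mitotic spindle gene beyond IL1A, named after its values were seen, was lower with CAPE by -0.50 in HK1 and -0.24 in HK1EBV. SLC20A1, a phosphate transporter gene further out on that side, was lower by -0.74 and -0.45, and was also named after its values were seen. PSD4, next to IL1RN on the far side and named after its values were seen, differed by 0.37 in HK1 and -0.71 in HK1EBV, with the signs of IL1RN.

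**Figure D4:**
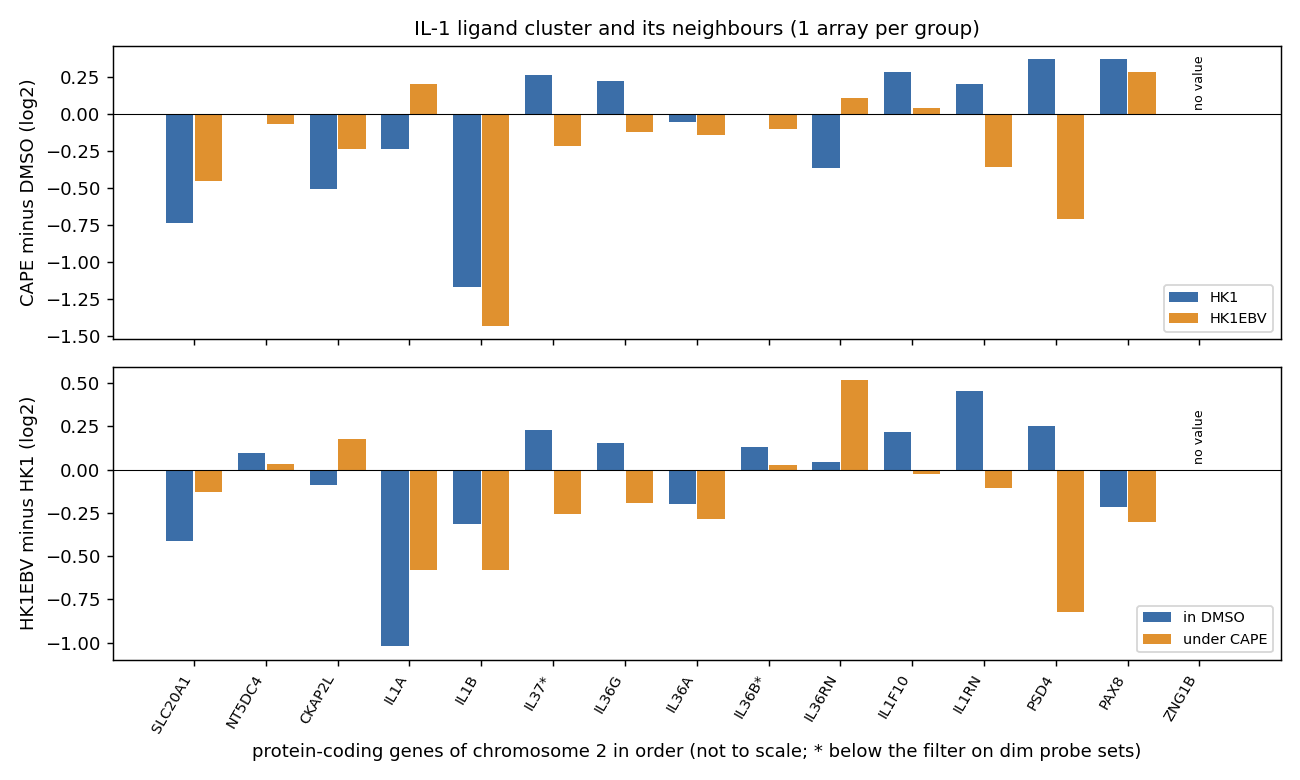
Protein-coding genes of the IL-1 ligand cluster with 3 neighbours on each side, in chromosomal order and not to scale (x axis), with the log2 CAPE change in each line (upper bars) and the log2 HK1EBV minus HK1 difference under each treatment (lower bars), 1 array per group. IL1B has the lowest CAPE change in both lines and IL1A, beside it, the lowest line difference in DMSO.

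The other family genes, from the IL-36, IL-18 and orphan branches, are given next. Of 12 listed, 8 were tested, and 0 passed by limma for CAPE or for the line, beside 0.00658% and 2.9% of all genes. Their median CAPE change was 0.12 in HK1 and 0.03 in HK1EBV, beside 0.02 and -0.00 for all genes. IL1RL1, the receptor of IL-33, was higher by 0.31 and 0.39, and SIGIRR, an inhibitory receptor of the family, by 0.44 and 0.19. IL1F10 differed by 0.29 and 0.05, IL18R1 by -0.11 and -0.11 and IL1RAPL1 by 0.24 and -0.04. For the line, IL36A differed by -0.20 in DMSO and -0.29 under CAPE, IL1RAPL1 by 0.36 and 0.09 and SIGIRR by -0.06 and -0.32.

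For signalling below the receptor, 18 of 21 listed genes were tested and 0 passed by limma for CAPE or line, beside 0.00658% and 2.9% of all genes. With CAPE 9 were higher and 3 lower in both lines, beside 4884 and 4480 of all 15194 genes. The medians were 0.08 in HK1 and 0.15 in HK1EBV, beside 0.02 and -0.00 for all genes. PELI1, a ubiquitin ligase that acts on IRAK kinases, was higher by 0.79 and 0.83, the largest mean change in the list (limma adjusted p = 0.0746, or 0.00481 without the genes of zero residual). MAP3K3 was higher by 0.36 and 0.30, TRAF6 by 0.09 and 0.55 and PELI3 by 0.44 and 0.20. UBE2N, the ubiquitin-conjugating partner of TRAF6, differed by -0.25 and -0.61. MYD88, the adaptor next to the receptor, was lower in HK1EBV by -0.58 in DMSO and -0.60 under CAPE (limma adjusted p = 0.0650). PELI3 was higher by 0.63 and 0.38 (limma adjusted p = 0.102), and MAP3K7 differed by -0.44 and -0.35. Without the genes of zero residual MYD88 was the 1 of 18 that fell and PELI3 the 1 that rose, with limma adjusted p of 0.0136 and 0.0343. Among all genes 5.34% fell and 6.26% rose between the lines in that setting. For CAPE in that setting PELI1 was the 1 of 18 that rose and 0 fell, beside 4.07% and 4.14% of all genes.

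Of inflammasome, caspase and release genes 18 of 28 listed were tested, and 0 passed for CAPE by limma, beside 0.00658% of all genes. With CAPE 8 were higher and 4 lower in both lines, and 6 had opposite signs. Among all 15194 genes these counts were 4884, 4480 and 5417. The medians were 0.05 in HK1 and 0.03 in HK1EBV, beside 0.02 and -0.00 for all genes. Those with the largest mean changes follow. CASP4 was higher with CAPE by 0.29 in HK1 and 0.61 in HK1EBV, NINJ1, of membrane rupture, by 0.46 and 0.32, TMED10, of unconventional secretion, by 0.34 and 0.38, and GSDME by 0.38 and 0.28. CAPN2 differed by -0.01 and -0.58. The caspase-1 gene CASP1, named outside the rule after its values were seen, differed by 0.23 and 0.15. For the line 1 gene passed, beside 2.9% of all genes in either direction and 1.32% higher. GSDMC, a gasdermin, rose in HK1EBV by 0.74 in DMSO and 0.72 under CAPE (limma adjusted p = 0.0487), from values of 0.88 and 0.91 in HK1 that lie under the filter level. This call was lost without the filter and without treatment as a block, where limma called 0 genes for the line, with 3519 and 2000 at an unadjusted p under 0.05. AIM2, a DNA sensor, differed by 0.86 and 0.13, and GSDMD, the pore former, by -0.34 and -0.33.

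Listed genes known to respond to IL-1 were higher with CAPE more often than lower, while IL1B itself was lower. The list was chosen with earlier results of these data known, so its counts are a description. Some genes counted as higher, such as CXCL6 and IL6, stood under the array median on all 4 arrays. The receptor gene IL1R1 stood below the filter, and a response to IL-1 was not tested. Of 32 listed 27 were tested. With CAPE 13 were higher and 2 lower in both lines, 9 had opposite signs and 3 had a change of 0 in 1 line. Among all 15194 genes 4884 were higher and 4480 lower in both lines. The medians were 0.17 and 0.16, beside 0.02 and -0.00 for all genes. By limma 0 of the 27 passed, beside 0.00658% of all genes. Without the genes of zero residual 5 rose and 1 fell by limma, beside 4.07% and 4.14% of all genes. The 1 that fell was LIF, by 0.43 in HK1 and 0.56 in HK1EBV (limma adjusted p = 0.0420 in that setting, 0.119 with all genes). At least 2-fold higher were 5 in HK1, beside 0.671% of all genes, and 4 in HK1EBV, beside 0.691%. The chemokine gene CXCL8 went from 3.22 to 4.35 in HK1 and from 2.57 to 3.85 in HK1EBV. TNFAIP3, a feedback inhibitor of NF-κB, went from 4.63 to 5.69 and from 3.32 to 4.67. The NF-κB subunit gene NFKB2 went from 4.39 to 5.47 and from 4.13 to 5.30. For TNFAIP3 the value on HK1EBV CAPE, 4.67, was close to that on HK1 DMSO, 4.63. SOD2 was higher by 1.01 and 0.33 and CCL20 by 0.07 and 1.41, and MMP10, named after its values were seen, differed by 1.12 and -0.20.

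Between the lines 4 of the 27 passed by limma and all 4 fell in HK1EBV, beside 1.58% of all genes tested. Over the list 15 were lower and 6 higher in HK1EBV under both treatments, beside 4810 and 5037 of all 15194 genes. Without the genes of zero residual 6 fell and 1 rose by limma, beside 5.34% and 6.26% of all genes. The 1 that rose was MMP1, a collagenase, by 1.33 in DMSO and 0.41 under CAPE (limma adjusted p = 0.0137 in that setting, 0.122 with all genes). MMP10 was higher by 1.38 in DMSO and 0.06 under CAPE, and both were named after their values were seen. TNFAIP2 fell by 1.57 in DMSO and by 1.70 under CAPE (limma adjusted p = 0.0203), TNFAIP3 by 1.31 and 1.02 (0.0363) and LIF, a cytokine of the IL-6 family, by 0.94 and 1.07 (0.0364). The fourth, LCN2, an iron-binding protein of inflamed epithelium, fell by 1.06 and by 0.71 (limma adjusted p = 0.0495) and was named after its values were seen. CCL20 differed by -1.60 and -0.26. These 4 calls were also lost without the filter and without treatment as a block.

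**Figure D5:**
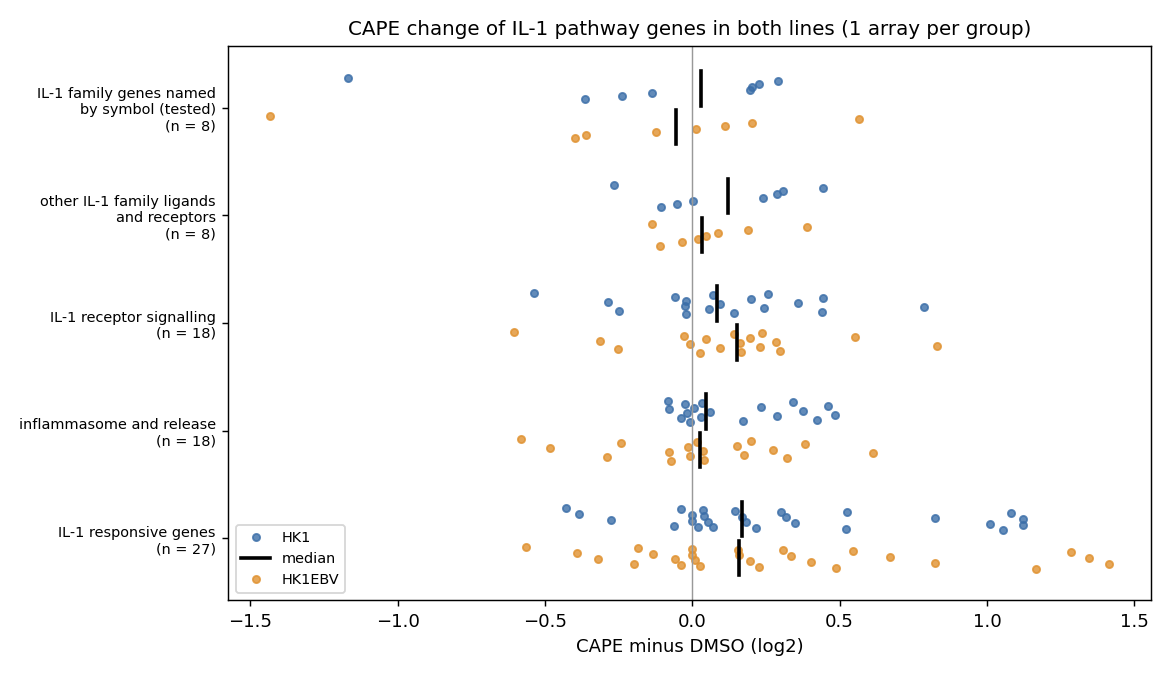
Log2 CAPE change (x axis) of each gene tested, in HK1 (blue) and HK1EBV (orange), for the 8 IL-1 family genes and 4 lists of related genes (y axis, with the number tested), with black bars for medians, 1 array per group. IL1B is the lowest point of its row in each line, while CXCL8, TNFAIP3 and NFKB2 are beyond 1 in both lines among the IL-1 responsive genes.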

How the data were processed

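RNA was measured on 4 single-colour arrays, 1 per group. Per the labels' protocols, each labelling used the WT PLUS kit and 250 ng of RNA. Per the submitters' processing notes the authors used RMA, whose output is on a log2 scale, and the deposited values were read as log2. No label gives its version, its settings or any later shift, so levels were set against the array median only as a description and no level was ranked against another gene's.

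Of 25800 probe sets, those with 1 gene symbol in the platform annotation (18612; 954 had several and 6234 none) were used, with the highest probe set per gene. Names and gene order came from RefSeq GRCh38.p14, matched by Entrez number for 18583 probe sets. Differences were tested in R 4.3.3 by limma 3.58.1 (moderated, two-sided, Benjamini-Hochberg over all genes tested, threshold 0.05), with 1 residual degree of freedom. On data simulated for the CAPE change alone, this fit returned the simulated fold sizes but did not call the changed genes. Each gene's simulated spread was set from its own residual and need not match the real spread. The power of the test in these arrays was thus not measured. Genes that did not pass may still differ. The 2-fold counts have no test. Named besides the family were, per list, the 5 tested genes with the largest mean CAPE change and the 3 with the largest line difference, with exceptions stated. The members, lists and alternatives were chosen with earlier results of these data known. Sequences are those of RefSeq. The number of arrays limits the precision.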

Additional observations from a re-analysis of the deposited data

Results flagged for a closer look

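Each result here is a change whose sign differed between the lines or between the treatments, with 1 array per group, so the difference was not tested. With CAPE, IL1A differed by -0.24 in HK1 and 0.20 in HK1EBV, a difference of 0.44. IL36RN differed by -0.36 and 0.11, a difference of 0.47. IL36G, at 0.22 and -0.12, and IL1RN, at 0.20 and -0.36, went the opposite way, with differences of -0.35 and -0.56. These 2 genes also changed sign between the treatments in the line difference, with the same values of -0.35 and -0.56. IL36G stood under the array median on all 4 arrays.

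Among related genes, the CAPE change of HK1EBV minus that of HK1 was -0.73 for AIM2, -0.28 for IL1RAPL1, -1.32 for MMP10, -0.92 for MMP1 and -1.08 for PSD4. For the genes with a pattern like that of IL1A it was 0.42 for ASB1, 0.45 for SAMD12 and 0.29 for SLC25A37, which the choice by likeness fixes. The line difference changed sign between the treatments, by -0.58 for CAPN2, 0.27 for CKAP2L, -0.24 for IL1F10, -1.08 for PSD4, -0.68 for SOD2 and 0.46 for TRAF6.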

How the results depend on the processing

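The family had 0 genes called for CAPE, and 1 (IL1B) with a filter at the 50th percentile, with arrays shifted to one median, with quantile normalization, with a robust prior and without genes of zero residual. For the line difference 0 were called, and 2 (IL1A and IL1RAP) under the same 5 settings. The cause was not tested. With no filter, a trended prior, the mean of the probe sets or no block, 0 were called for either. Under CAPE the lines were 2-fold apart in 0 family genes and 1.5-fold or more in 1. The line difference of IL36G, -0.02, reversed to 0.000487 with arrays shifted to one median. All other signs of the mean changes of the 8 tested genes held under the 9 alternatives, except that IL36G and IL1R2 drop out at the 50th percentile. Over all genes, limma called 1 for CAPE and 440 for the line. The counts were 0 and 0 with no filter or no block (for CAPE 2992 and 1364 at an unadjusted p under 0.05), 894 and 1296 with the filter at the 50th percentile, 1006 and 1526 with one median and 755 and 1324 with quantile normalization. They were 379 and 959 with a robust prior, 7 and 440 with a trended prior and 1243 and 1756 without genes of zero residual. With one median, 865 line calls were higher and 661 lower, against 200 and 240. No array could be left out with a test, since each is the only one of its group. The main fit compares CAPE with DMSO within each line, and the lines within each treatment. With no block the other factor is left out. Without line in the fit the adjusted p (limma) was 0.437 for the CAPE change of IL1B. Without treatment in the fit the adjusted p (limma) was 0.211 and 0.230 for the line differences of IL1A and IL1RAP. Dim probe sets limit IL33, IL1R1, IL36G and IL1R2.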
